A study of Mus musculus with 48 samples.

Results

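The 9 genes described here encode enzymes and receptors of the prostaglandin system, and were taken by symbol from a panel of 248 inflammation genes. They are Ptgs1 and Ptgs2, which encode the cyclooxygenases COX-1 and COX-2, and the prostanoid receptor genes Ptgfr, Ptger1, Tbxa2r, Ptger2, Ptger4, Ptgir and Ptger3. All 9 had a probe, and 8 of them were among the 196 genes with enough counts to be tested. Ptger1 was not.

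RNA came from knee joints of male C57BL/6 mice aged 3 months, and was counted on the NanoString nCounter system, which reads fluorescent barcodes bound to single RNA molecules without amplification. Each sample was made from synovial tissue, cartilage and subchondral bone, the first in equal mass to the rest. Healthy joints without treatment (n = 12) were set against joints of a post-traumatic osteoarthritis (PTOA) model, in which knees were compressed with a force of 9 N from 8 weeks of age. A session had 500 cycles, and there were 5 sessions a week over 4 weeks. The loaded joints received nothing (loaded untreated, n = 12), or nanoparticles bearing antibodies to collagen II, the main collagen of cartilage (mAbCII-siNPs). The particles carried either a negative control small interfering RNA (siNEG, n = 12) or one against MMP13, a collagen-cleaving metalloproteinase (siMMP13, n = 12). No group had loaded joints with particles that lack siRNA, and the siRNA dose is not given in the sources used here. Mmp13 was not among the probes, so its knockdown could not be measured here.

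Prostaglandins are lipid signals made from arachidonic acid. Phospholipase A2 frees the acid from membranes, COX-1 or COX-2 converts it to prostaglandin H2, and separate synthases turn that into prostaglandin E2, prostaglandin F2alpha, prostacyclin, prostaglandin D2 or thromboxane A2. COX-1 is present in most tissues at rest, whereas COX-2 is induced by cytokines, growth factors and mechanical stress, and is a target of the drugs used against joint pain. The receptors couple to different G proteins: those for prostaglandin F2alpha and thromboxane, and the EP1 receptor, raise calcium through Gq, those for prostacyclin and the EP2 and EP4 receptors raise cyclic AMP through Gs, and EP3 lowers it through Gi.

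The start regions of both cyclooxygenase genes and of Ptgfr are shown because Ptgs2 and Ptgfr had the largest differences between loaded and healthy joints among the 9 genes, and Ptgs1 is the other cyclooxygenase gene. The sequences are those of RefSeq, build GRCm38.p6, and run from 250 bases before the start site that the promoter table uses to 50 bases after it, each on its gene's strand. For Ptgs2 and Ptgfr that site is the first base of the annotated gene. For Ptgs1 it lies 13684 bases inside the annotated gene span, so other starts of Ptgs1 are not covered. Ptgs2 is at chr1:150099781-150100080 (plus strand), Ptgfr at chr3:151837479-151837778 (minus strand) and Ptgs1 at chr2:36230176-36230475 (plus strand). Capitals mark matches to 7 motifs searched on both strands.
Ptgs2: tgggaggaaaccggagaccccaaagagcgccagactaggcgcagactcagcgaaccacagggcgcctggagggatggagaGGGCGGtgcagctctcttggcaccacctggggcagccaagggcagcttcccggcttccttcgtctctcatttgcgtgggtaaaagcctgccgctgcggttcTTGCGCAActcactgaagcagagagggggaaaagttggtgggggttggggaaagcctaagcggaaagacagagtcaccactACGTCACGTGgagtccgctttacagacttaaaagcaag
Ptgfr: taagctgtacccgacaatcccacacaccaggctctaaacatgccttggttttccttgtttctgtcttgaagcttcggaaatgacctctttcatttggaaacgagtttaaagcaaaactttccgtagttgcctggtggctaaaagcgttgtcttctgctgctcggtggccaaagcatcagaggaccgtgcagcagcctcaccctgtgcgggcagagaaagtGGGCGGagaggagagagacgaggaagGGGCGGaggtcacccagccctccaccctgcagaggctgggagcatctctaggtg
Ptgs1: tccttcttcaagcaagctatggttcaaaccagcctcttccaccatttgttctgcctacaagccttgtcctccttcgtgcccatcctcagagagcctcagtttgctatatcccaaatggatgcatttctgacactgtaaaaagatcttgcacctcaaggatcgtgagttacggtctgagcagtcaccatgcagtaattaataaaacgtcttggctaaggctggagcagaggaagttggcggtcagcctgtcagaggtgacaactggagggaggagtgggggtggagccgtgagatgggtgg

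The motifs were the cyclic AMP response element (TGACGT), the E box (CACGTG), a C/EBP palindrome (TTGCGCAA), an NF-kB motif, the TATA box (TATAAA), an AP-1 site (TGANTCA) and the GC box (GGGCGG), with N for any base. In the Ptgs2 window the element TGACGT lay on the minus strand, read as ACGTCA from base 13 after the annotated start. It overlapped an E box that begins at base 17. Positions count from the start site used for each window, and where transcription begins in these joints was not measured. The same window held the C/EBP palindrome from position -69 and a GC box from position -170. Of 32851 mouse promoter windows of the same length, 7.51% held TGACGT, 7.15% the E box, 0.183% the C/EBP palindrome and 35.7% the GC box. The Ptgfr window held GC boxes at positions -30 and -4 and no other of the 7 motifs, and the Ptgs1 window held none of them. The NF-kB, TATA and AP-1 letters, in 0.411%, 13.6% and 7.81% of all windows, were in none of these 3. Sequence outside the windows was not searched, so sites farther from the start are not covered. The windows of 8 of the 9 genes were in the table, and in those of Tbxa2r, Ptger2, Ptger4, Ptgir and Ptger3 the GC box was the only motif matched, where any was.

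Total gene counts ran from 36415 to 302377 per sample, so counting error differed between samples. Counts were divided by a factor from 6 housekeeping genes, and these normalized counts are given below. Probes of different genes are not on a common scale, so levels are compared between groups and not between genes. A sample was taken as above background for a gene when its count exceeded the mean plus 2 SD of the 8 negative control probes in its own lane, a limit of 7.70 to 24.1 counts. In 4 libraries, healthy replicate 2 and siMMP13 replicates 7, 8 and 11, a housekeeping gene departed by more than 1 log2 unit from its usual share, and the calls and directions that change without them are given both ways. The panel held none of the listed markers of cartilage, bone, synovial fibroblasts or platelets, so the labelled tissue could not be checked against them. In such mixed tissue, fewer cells of a type and less RNA per cell cannot be told apart.

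Ptgs2, the inducible cyclooxygenase gene, was at background in most healthy joints and above it in most loaded joints. Healthy joints had between 2.68 and 15.0 normalized counts, with a median of 7.64, and 2 of 12 lay above the negative controls. Loaded untreated joints had between 21.8 and 94.2, with a median of 41.6, and all 12 lay above the controls. Every loaded untreated joint exceeded the highest healthy joint. Lanes differed in depth, with median total gene counts of 113746 in healthy and 162624 in loaded untreated joints. On the normalized scale the background limit ran from 8.07 to 41.6 in healthy joints and reached 13.6 in loaded untreated ones. The numbers of joints above the controls were therefore not taken at equal depth. SiNEG joints ranged from 11.7 to 132 (median 47.0), and siMMP13 joints from 11.9 to 88.0 (median 32.9), with 10 of 12 above the controls in each. In each of those groups 11 of 12 joints exceeded the highest healthy one. These included siNEG replicate 10 (23.5, limit 30.2) and siMMP13 replicate 7 (21.4, limit 28.2), which lay below their own background limits.

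Ptgs2 rose with loading in all 3 comparisons with healthy joints, which share the same 12 healthy samples. With healthy values raised to the background limit where they lay below it, the level was at least 2.45-fold higher in loaded untreated joints. By the same measure it was 2.71-fold higher in siNEG joints and 1.97-fold higher in siMMP13 joints. These values are not lower bounds, since some joints of both groups lay below their own limits and kept their observed values. None of these values was tested. The fitted log2 fold changes, on counts not raised, were 2.42 ± 0.26 (SE, edgeR adjusted p = 2.1e-07), 2.57 ± 0.32 (adjusted p = 5e-08) and 2.12 ± 0.30 (adjusted p = 1.7e-06). They depend on healthy counts near background. Ptgs2 passed the count filter through the loaded groups, since 0 healthy samples had over 20 counts. With the limit at mean plus 3 SD, 1 healthy, 12 loaded untreated, 9 siNEG and 8 siMMP13 joints were above background. The SD of log2 values between joints was 0.68 in untreated, 0.94 in siNEG and 0.83 in siMMP13 joints.

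Ptgs1, the constitutive cyclooxygenase gene, was above background in all 48 joints. Healthy joints ranged from 139 to 290 normalized counts (median 249), loaded untreated joints from 82.4 to 317 (median 181), siNEG joints from 119 to 282 (median 181) and siMMP13 joints from 85.0 to 434 (median 174). The ranges overlapped in every pair of groups, and 10 of 12 loaded untreated joints lay below the healthy median. The log2 fold change against healthy joints was -0.35 ± 0.18 in loaded untreated joints (adjusted p = 0.16), -0.33 ± 0.15 in siNEG joints (adjusted p = 0.18) and -0.17 ± 0.23 in siMMP13 joints (adjusted p = 0.50), none of which passed the threshold of 0.05. The 3 highest siMMP13 values were those of replicates 7, 8 and 11. Without the 4 divergent libraries, Ptgs1 was lower in loaded untreated joints by -0.40 (adjusted p = 0.040) and in siMMP13 joints by -0.68 (adjusted p = 0.0018). Leaving these libraries out also turned the sign of Ptgs1 in siMMP13 against siNEG joints, from 0.16 (adjusted p = 0.67) to -0.30 (0.35), and against untreated joints, from 0.18 (0.65) to -0.28 (0.41).

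**Figure D1:**
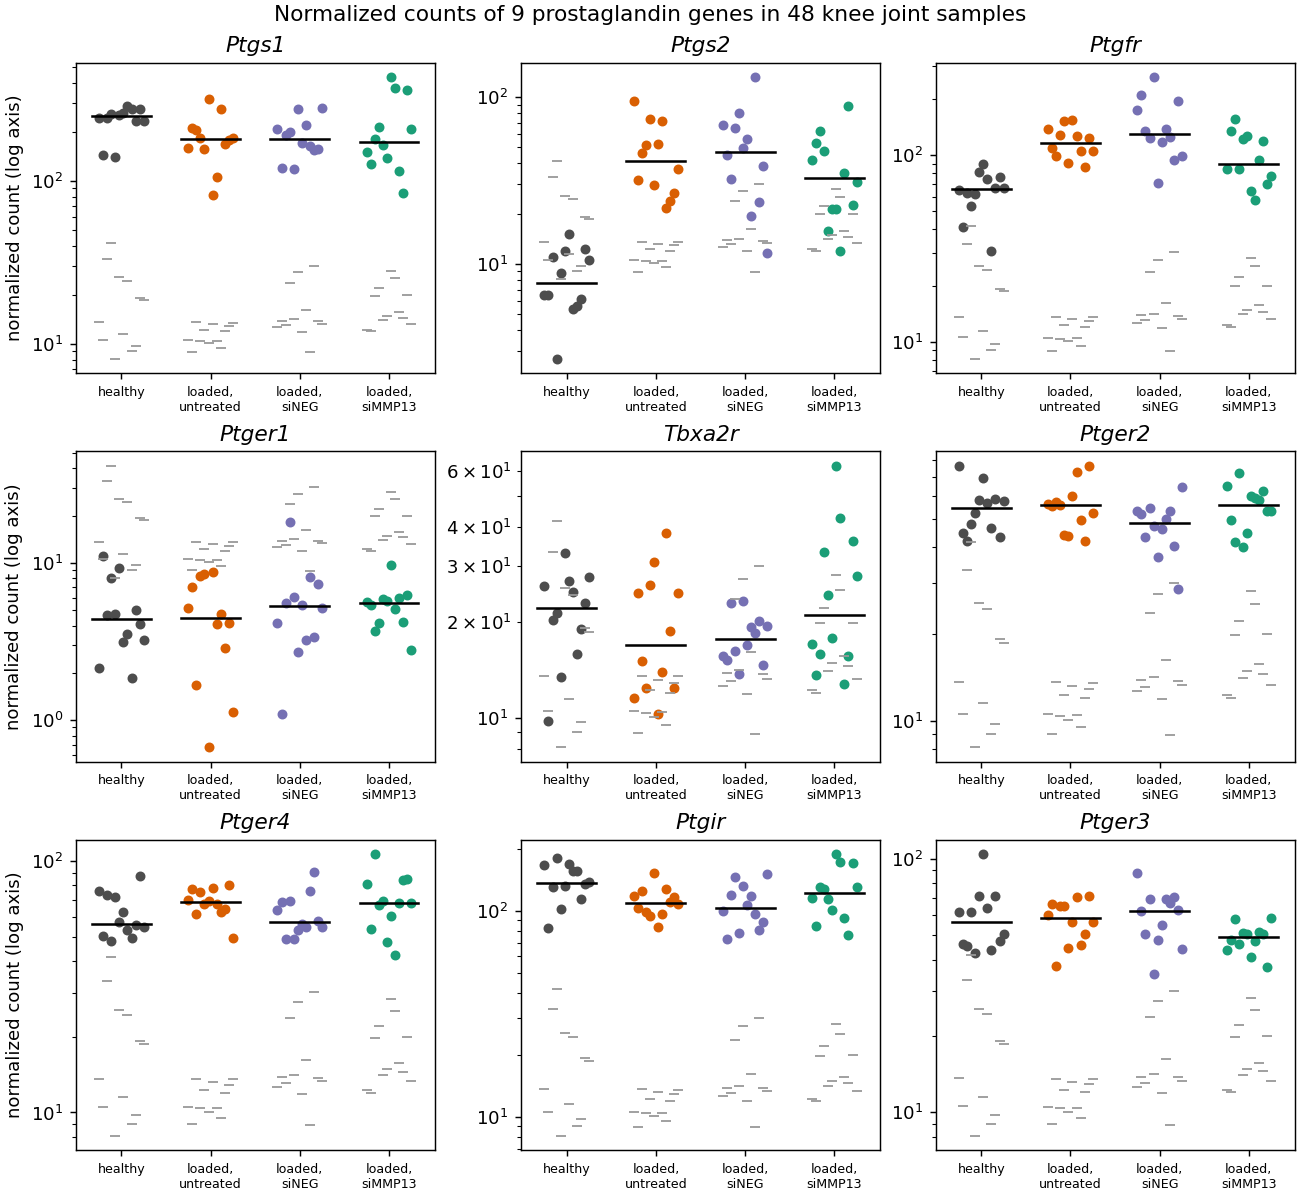
Normalized counts (log axis) of the 9 genes in every joint, by group (n = 12 each). Circles are samples, black lines are group medians, and grey ticks are each lane's background limit on the same scale. Ptgs2 moves from around or below the ticks in healthy joints to above them in most loaded joints, and Ptger1 lies above them in 1 of 48 joints.

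Ptgfr encodes the receptor of prostaglandin F2alpha. Healthy joints had 30.7 to 90.2 normalized counts (median 65.8), and loaded untreated joints 86.7 to 154 (median 117). The groups met only at their edges, and 11 of 12 loaded untreated joints exceeded the highest healthy one. SiNEG joints ranged from 71.1 to 262 (median 130) and siMMP13 joints from 57.7 to 157 (median 89.8). Of these, 11 siNEG and 6 siMMP13 joints exceeded every healthy joint.

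Ptgfr rose in loaded joints, 1.85-fold without treatment (log2 fold change 0.89 ± 0.15, adjusted p = 5.3e-05), 2.28-fold with siNEG (1.19 ± 0.20, adjusted p = 4.9e-07) and 1.56-fold with siMMP13 (0.64 ± 0.18, adjusted p = 0.0019). It was the only one of the 6 tested receptor genes called in all 3 comparisons with healthy joints. These calls held under all 20 alternative settings and with each sample left out. Of 3 endothelial markers listed, the panel held Flt1, which encodes a receptor of vascular endothelial growth factor. Flt1 ranged from 30.7 to 67.6 normalized counts in healthy joints, 60.6 to 97.4 after loading alone, 54.9 to 135 with siNEG and 44.7 to 89.5 with siMMP13, and its part in the Ptgfr result was not tested.

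The other Gq-coupled receptor genes were low. Ptger1, for the EP1 receptor of prostaglandin E2, had median normalized counts of 4.38 in the healthy group and, among loaded joints, 4.45 without treatment, 5.29 with siNEG and 5.56 with siMMP13. Its highest count was 17, in healthy replicate 2, the 1 joint of 48 above the negative controls. Ptger1 could not be told from background here, and no fold is given. Tbxa2r, the thromboxane A2 receptor gene, was above the controls in 9 of 12 healthy, 10 loaded untreated, 8 siNEG and 10 siMMP13 joints. Its medians were 22.3, 17.0, 17.7 and 21.1, with overlapping ranges. The fitted log2 fold changes against healthy joints were -0.11 ± 0.22, -0.26 ± 0.15 and 0.24 ± 0.24, with adjusted p-values of 0.71, 0.36 and 0.37. Without the divergent libraries the siMMP13 value was -0.21 (adjusted p = 0.38).

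Among the Gs-coupled receptor genes, Ptgir, for the prostacyclin receptor, had lower values in loaded joints, and the difference passed the test in 1 of 3 comparisons. Healthy joints ranged from 82.8 to 180 normalized counts (median 136), loaded untreated joints from 83.2 to 153 (median 109), siNEG joints from 73.0 to 151 (median 104) and siMMP13 joints from 76.5 to 189 (median 122). All 4 ranges overlapped. Ptgir fell by 0.36 ± 0.14 on the log2 scale in siNEG joints (adjusted p = 0.028), and 10 of 12 of them lay below the healthy median. The muscle gene Myl2 varied widely between joints and also by group. The sum of 3 muscle markers that includes it had a median of 224 in healthy and 464 in siNEG joints. With Myl2 as a covariate, which can thus take up part of the group difference, the siNEG value of Ptgir was -0.18 (adjusted p = 0.29). In loaded untreated joints the log2 fold change was -0.31 ± 0.12 (adjusted p = 0.055), with 11 of 12 joints below the healthy median, and 10 of 20 alternative settings called it. In siMMP13 joints it was -0.15 ± 0.15 (adjusted p = 0.37), and -0.41 (adjusted p = 0.0056) without the divergent libraries.

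Ptger2 and Ptger4, for the EP2 and EP4 receptors of prostaglandin E2, were above background in all 48 joints. Mean normalized counts of Ptger2 were 54.7 ± 10.6 (SD) in healthy joints and, among loaded joints, 55.6 ± 10.7 untreated, 47.6 ± 9.51 with siNEG and 55.1 ± 9.78 with siMMP13. For Ptger4 they were, in the same order, 61.6 ± 12.5, 68.6 ± 8.75, 61.9 ± 12.5 and 69.4 ± 17.8. None of their comparisons passed the test with housekeeping scaling. In loaded untreated against healthy joints, the 95% interval of the mean log2 difference ran from -0.20 to 0.25 for Ptger2 and from -0.03 to 0.37 for Ptger4. Ptger2 in siNEG against healthy joints was -0.20 ± 0.12 (adjusted p = 0.14). It passed as lower in 4 alternative scalings, at -0.44 (adjusted p = 0.0017) with TMM, -0.42 (0.0019) with DESeq2 size factors, -0.40 (0.0025) with total counts and -0.29 (0.035) without Hprt. Without the divergent libraries Ptger2 in loaded untreated and siMMP13 joints against healthy ones was -0.01 and -0.04, with adjusted p-values of 0.96 and 0.76.

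Ptger3 encodes EP3, the Gi-coupled receptor of prostaglandin E2. Healthy joints ranged from 42.4 to 104 normalized counts (median 56.1), loaded untreated joints from 37.8 to 71.4 (median 58.2), siNEG joints from 35.1 to 87.7 (median 62.4) and siMMP13 joints from 37.4 to 58.2 (median 49.1). All 12 siMMP13 joints lay below the siNEG median, although the ranges overlapped. The log2 fold change in siMMP13 joints was -0.28 ± 0.12 against healthy (adjusted p = 0.069) and -0.30 ± 0.12 against siNEG joints (adjusted p = 0.19). The first of these passed the threshold under scaling to all genes, at -0.41 (adjusted p = 0.0034) with the TMM method. In siNEG against healthy joints it was 0.02 ± 0.15 (adjusted p = 0.90), and -0.01 (0.94) without the divergent libraries.

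Across the group, 2 of the 8 tested genes were called in loaded untreated against healthy joints, where 46.4% of all tested genes were called, 31.6% as higher and 14.8% as lower. In siNEG joints 3 were called, Ptgs2 and Ptgfr as higher and Ptgir as lower, against 50% of all tested genes (37.8% higher and 12.2% lower). In siMMP13 joints 2 were called, against 49.5% of all tested genes (34.7% higher and 14.8% lower). The share of prostaglandin genes called was thus not above that of the panel in any of these comparisons. The median log2 fold change of the 8 was -0.01, -0.10 and 0.09 in the 3 comparisons, beside 0.15, 0.20 and 0.14 over all tested genes. Without the divergent libraries 4 of the 8 were called in loaded untreated joints and 4 in siMMP13 joints, with Ptgs1 and Ptgir as lower beside Ptgs2 and Ptgfr as higher. The same fits called 56.1% and 61.7% of all tested genes, so these shares too were not above the panel's.

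**Figure D2:**
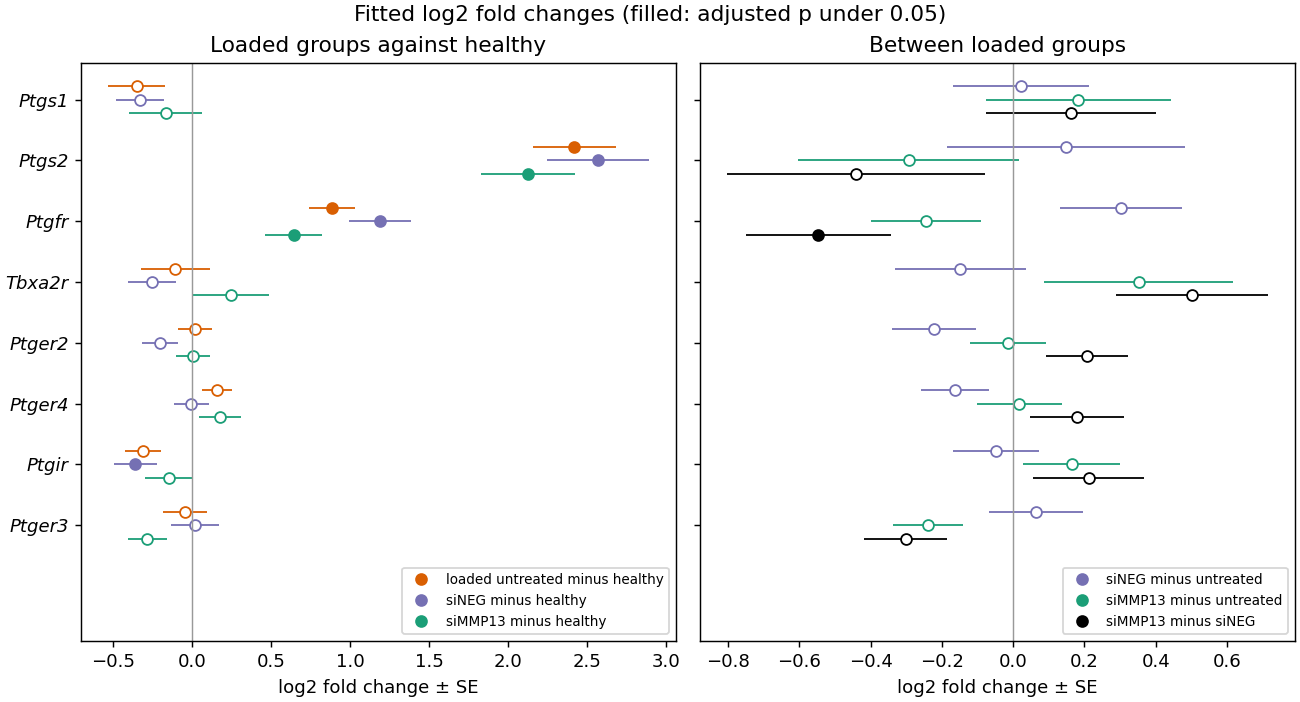
Fitted log2 fold changes with their SE (n = 12 per group) for the 8 tested genes. The left panel shows each loaded group against healthy joints and the right panel the loaded groups against each other, on different horizontal scales. Filled circles have an adjusted p under 0.05: Ptgs2 and Ptgfr in all 3 comparisons on the left, Ptgir for siNEG, and Ptgfr alone on the right. The Ptgs2 values on the left rest on healthy counts near background.

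The loaded groups were compared to ask whether the nanoparticles or the siRNA moved these genes. Ptgfr was lower in siMMP13 than in siNEG joints, by 1.46-fold (log2 fold change -0.55 ± 0.20, adjusted p = 0.043), and 10 of 12 siMMP13 joints lay below the siNEG median. It was the only one of the 8 called, where 6.12% of all tested genes were called, 1.53% as higher and 4.59% as lower. That split depended on the scaling: 3 genes were higher and 9 lower here, and 8 higher and 1 lower with either TMM or DESeq2 size factors. The call was lost under 14 of 20 alternative settings, with adjusted p-values from 0.016 to 0.20 over all of them, and with 16 of 24 samples left out in turn. Without the divergent libraries it was -0.39 (adjusted p = 0.20), and with the replicate number as a block -0.51 (adjusted p = 0.11). Flt1 was lower in the same comparison, with a log2 fold change of -0.43 ± 0.14 (adjusted p = 0.043).

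Against loaded untreated joints, Ptgfr was -0.24 ± 0.15 in siMMP13 joints (adjusted p = 0.48) and 0.30 ± 0.17 in siNEG joints (adjusted p = 0.70). The order of Ptgfr medians, lowest first, was healthy, siMMP13, loaded untreated and siNEG. Neighbours among the 3 loaded groups did not differ beyond their spread, and healthy and siMMP13 joints did. Ptgs2 had the same order. Its log2 fold change in siMMP13 against siNEG joints was -0.44 ± 0.36 (adjusted p = 0.35), and the 95% interval of the mean log2 difference ran from -1.16 to 0.34. In siMMP13 against untreated joints it was -0.29 ± 0.31 (adjusted p = 0.65).

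In siMMP13 against loaded untreated joints 0 of the 8 genes were called by edgeR, where 3.57% of all tested genes were (2.04% higher, 1.53% lower). In siNEG against loaded untreated joints 0 of the 8 were called by edgeR, where 1.53% of all were (1.02% higher, 0.51% lower). No unadjusted p of the 8 was under 0.05 in either comparison, and none of the 20 alternative settings called any. The lowest were 0.073 for Ptger3 with siMMP13 and 0.062 for Ptger2 with siNEG. Without the divergent libraries, Tbxa2r in siMMP13 against untreated joints went from 0.35 (adjusted p = 0.44) to -0.03 (0.94), and Ptgir from 0.16 (0.54) to -0.05 (0.88). Tbxa2r in siMMP13 against siNEG joints was 0.50 ± 0.21 (adjusted p = 0.20).

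The ratio of an inducible gene to Ptgs1 in the same lane does not depend on the scaling. It compares groups only, since the probes are not on a common scale. The count ratio of Ptgs2 to Ptgs1 ranged from 0.0206 to 0.0673 in healthy joints (median 0.0488), and from 0.0805 to 0.685 in loaded untreated joints (median 0.217). All 12 loaded untreated joints exceeded every healthy joint. In siNEG joints it ranged from 0.0459 to 0.804 (median 0.288), and in siMMP13 joints from 0.0364 to 1.04 (median 0.192), with 11 and 9 of 12 above every healthy joint.

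The mean log2 ratio of Ptgs2 to Ptgs1 was higher than in healthy joints by 2.63 ± 0.35 in loaded untreated joints (6.20-fold), 2.63 ± 0.37 in siNEG joints and 2.17 ± 0.44 in siMMP13 joints. In two-sided permutation tests, adjusted over 12 comparisons of ratios, the p-values were 6e-05, 6e-05 and 0.00022, and the smallest unadjusted p the 100000 resamples can give is 1e-05. Healthy ratios rest on Ptgs2 counts mostly not above background. The log2 ratio of Ptgfr to Ptgs1, with both genes above background throughout, was higher by 1.30 ± 0.25 (adjusted p = 6e-05), 1.48 ± 0.28 (6e-05) and 0.91 ± 0.35 (0.033) in the permutation tests. Between loaded groups neither ratio differed beyond its spread, with adjusted permutation p-values from 0.29 to 1. Without siMMP13 replicates 7, 8 and 11 and healthy replicate 2, the Ptgfr ratio of siMMP13 against healthy joints was 1.45.

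**Figure D3:**
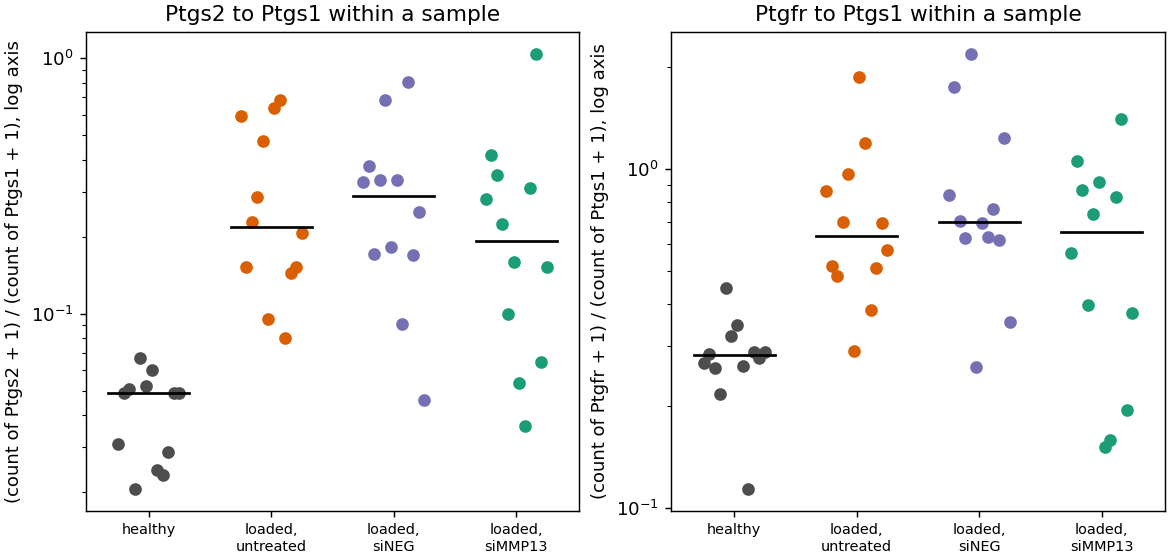
Count ratios within each lane (log axis) of Ptgs2 to Ptgs1 (left) and Ptgfr to Ptgs1 (right), with 1 added to each count. Circles are joints (n = 12 per group) and lines are medians. The Ptgs2 ratio has a median of 0.0488 in healthy joints and 0.192 to 0.288 in the loaded groups.

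Within groups, some of these genes varied together and some in opposite directions. Correlations were taken over 48 joints on log2(normalized count + 1) after subtracting each group's mean, for 28 pairs, with p from permutation within groups. By Spearman's rho 9 pairs had an adjusted p under 0.05, 5 positive and 4 negative. The share of pairs that pass among all tested genes of the panel was not counted. The 9 pairs may thus be part of wider covariation, and are not shown to be particular to the prostaglandin genes. The points share each library's scaling, which moves all genes of a joint together.

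Ptgs1, Ptgir and Tbxa2r varied together. Ptgs1 and Ptgir had a Pearson r of 0.87 and a rho of 0.86 (permutation p = 1e-05 for each, adjusted 9.3e-05 and 0.00014), and r lay between 0.82 in healthy and 0.98 in siMMP13 joints. Without the 2 samples farthest from the median of Ptgs1, r was 0.86, and without the divergent libraries 0.84. Ptgs1 and Tbxa2r had an r of 0.79 and a rho of 0.71 (permutation p = 1e-05 for each, adjusted 9.3e-05 and 0.00014), and 0.78 for r without the 2 farthest samples. Tbxa2r and Ptgir had an r of 0.66 and a rho of 0.60 (permutation p = 1e-05 and 3e-05, adjusted 9.3e-05 and 0.00028), with r at 0.57 without the 2 farthest samples and 0.52 without the divergent libraries.

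Ptgs2 and Ptgfr also varied together, more weakly. Their r was 0.48 and their rho 0.50 (permutation p = 0.0018 and 0.0008, adjusted 0.0086 and 0.0050), with r between 0.32 in siNEG and 0.71 in loaded untreated joints. Scaling by TMM gave an r of 0.30, so part of this value moves with the scaling. Without the 2 samples farthest from the median of Ptgs2, r was 0.50.

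Of the 6 pairs that join Ptgs1, Ptgir or Tbxa2r to Ptgs2 or Ptgfr, 4 passed, all negative, and none of the 6 had an r below -0.17 in healthy joints. Ptgs1 and Ptgfr had an r of -0.51 and a rho of -0.48 (permutation p = 0.00019 and 0.0012, adjusted 0.0013 and 0.0057), and -0.49 without the 2 farthest samples. The r was 0.26 in healthy joints, and -0.67, -0.72 and -0.75 in loaded untreated, siNEG and siMMP13 joints. The difference between healthy and loaded joints was not tested. Ptgfr and Ptgir had an r of -0.46 and a rho of -0.495 (permutation p = 0.0027 and 0.00089, adjusted 0.011 and 0.0050), and -0.44 for r without the 2 farthest samples. It was 0.22 in healthy joints and -0.62 to -0.73 in the loaded groups.

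Ptgs1 and Ptgs2, the 2 cyclooxygenase genes, had an r of -0.47 and a rho of -0.42 (permutation p = 0.0012 and 0.0052, adjusted 0.0066 and 0.018), and -0.42 for r without the 2 farthest samples. In healthy joints, where Ptgs2 was near background, r was -0.01, and in the loaded groups -0.43 to -0.64. Ptgs2 and Ptgir had an r of -0.40 and a rho of -0.37 (permutation p = 0.0080 and 0.014, adjusted 0.028 and 0.042), and -0.35 for r without the 2 farthest samples. Tbxa2r did not pass with Ptgfr (rho -0.32, adjusted permutation p = 0.070) or Ptgs2 (rho -0.32, adjusted 0.076). The r of Tbxa2r with Ptgfr was 0.71 in healthy joints, and -0.49, -0.82 and -0.78 in loaded untreated, siNEG and siMMP13 joints. With Ptgs2 it was 0.32, -0.51, -0.41 and -0.60 in the same order, the first resting on healthy Ptgs2 counts near background. The value of Tbxa2r with Ptgfr over 48 joints thus joins groups of opposite sign. Under TMM scaling the 4 negative values of r that passed lay between -0.33 and -0.43. Total-count scaling gave -0.29 for Ptgs1 with Ptgfr and for Ptgfr with Ptgir, and -0.44 and -0.45 for the other 2. Of the EP receptor genes, Ptger3 passed in 1 pair, with Ptgfr, at an r of 0.34 and a rho of 0.40 (permutation p = 0.022 and 0.0049, adjusted 0.050 and 0.018), and its r was 0.27 without the 2 farthest samples and 0.13 under TMM scaling.

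**Figure D4:**
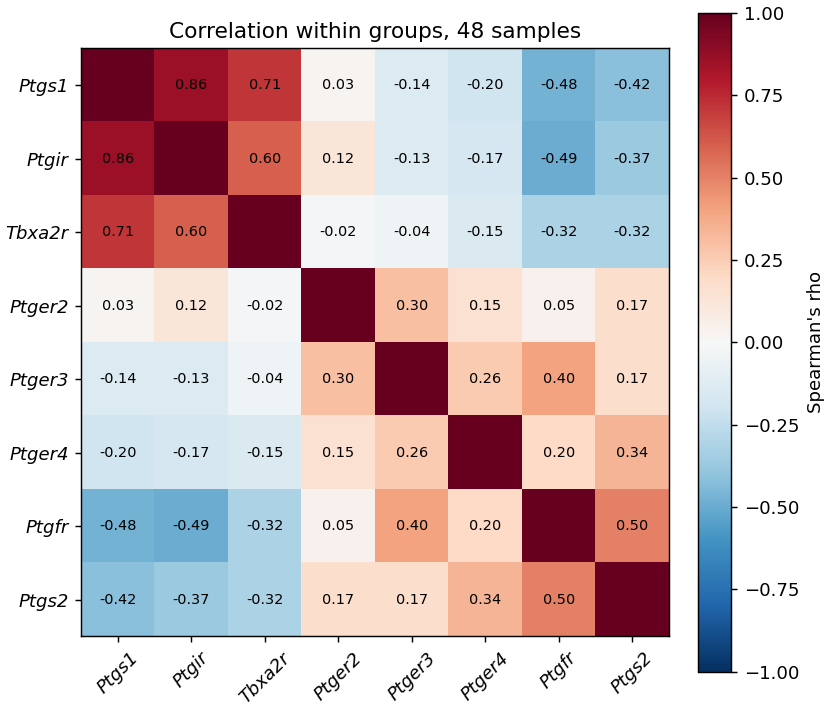
Spearman's rho between the 8 tested genes over 48 joints, after subtraction of group means. Red is positive and blue negative. Ptgs1, Ptgir and Tbxa2r form a positive block, with rho of 0.60 to 0.86, and each of Ptgs1 and Ptgir is negative with Ptgfr and Ptgs2.

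**Figure D5:**
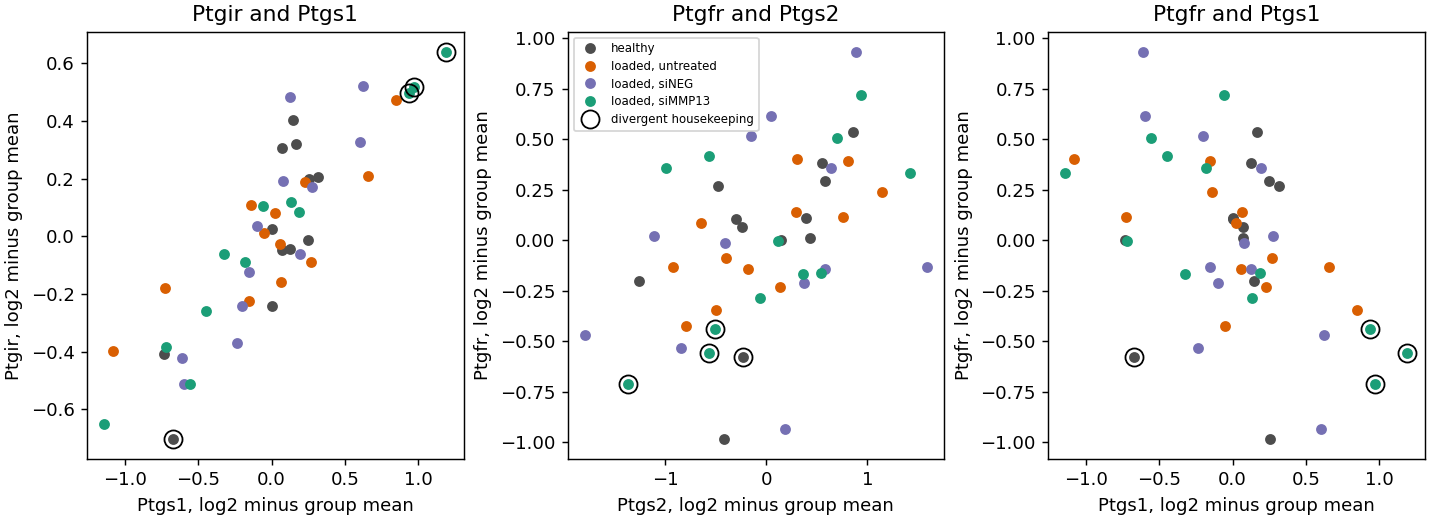
Group-centred log2 values of Ptgir against Ptgs1, Ptgfr against Ptgs2 and Ptgfr against Ptgs1, with 1 point per joint (48 in all, colours by group) and the 4 divergent libraries circled. The pairs have Pearson r of 0.87, 0.48 and -0.51.

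The genes most like each called gene were taken by rho over the same 48 joints, among the 195 other tested genes. For Ptgs2 they were Csf1 (0.70), the growth factor gene of macrophages, Il1r1 (0.70), the receptor gene of interleukin-1, and Cxcl5 (0.68), a chemokine gene. For Ptgfr they were the transcription factor genes Tcf4 (0.79) and Hif1a (0.78), and Tgfb3 (0.75), a transforming growth factor gene. For Ptgir they were Ptgs1 (0.86) and the kinase genes Map3k1 (0.80) and Mapk3 (0.79). Pearson's r of these 9 pairs lay between 0.62 and 0.87. The permutation p was at most 2e-05 for each, and at most 0.00039 adjusted over the 195 genes. How many of the 195 passed with each called gene was not counted. The genes named are the highest by rho and may be part of wider covariation across the panel. The points share each library's scaling, and TMM scaling put Pearson's r of Csf1 with Ptgs2 at 0.48 in place of 0.62.

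Other genes of the eicosanoid pathway were taken from a fixed list of 19, of which 8 were on the panel and 7 were tested. In loaded untreated against healthy joints 1 rose and 3 fell, where 31.6% of all tested genes rose and 14.8% fell. The median log2 fold change of the 7 was -0.29, beside 0.15 over all tested genes. Cysltr1, a receptor gene for cysteinyl leukotrienes, rose from 43.6 ± 18.6 (SD) to 106 ± 33.5 normalized counts (log2 fold change 1.27 ± 0.22, adjusted p = 2.4e-05). Alox15, for 15-lipoxygenase, fell from 408 ± 190.0 to 206 ± 86.2 (-0.99 ± 0.28, adjusted p = 0.0031). Alox5, which makes the first step towards leukotrienes, fell from 274 ± 74.7 to 200.5 ± 45.7 (-0.45 ± 0.16, adjusted p = 0.012). Ltb4r1, a leukotriene B4 receptor gene, fell by 0.35 ± 0.16 on the log2 scale (adjusted p = 0.047). Pla2g4a, the cytosolic phospholipase A2 that supplies both branches, had 171 ± 32.2 and 189 ± 22.9 counts (0.15 ± 0.10, adjusted p = 0.21). In siNEG joints 1 of the 7 rose and 3 fell, with a median of -0.44 beside 0.20 over all genes, of which 37.8% rose and 12.2% fell. In siMMP13 joints 1 rose and 2 fell, with a median of -0.33 beside 0.14 over all genes, of which 34.7% rose and 14.8% fell. Between loaded groups 0 of the 7 were called by edgeR. Of all tested genes, 6.12% were called in siMMP13 against siNEG, 3.57% in siMMP13 against untreated and 1.53% in siNEG against untreated joints.

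Of 8 genes for the signalling steps behind these receptors, 7 were tested, and in loaded untreated joints 1 rose and 1 fell, against 31.6% and 14.8% of all tested genes. Plcb1, the phospholipase C acted on by Gq, rose from 60.2 ± 16.4 to 89.3 ± 10.8 normalized counts (0.56 ± 0.14, adjusted p = 0.00043). Prkca, a protein kinase C activated downstream of it, fell from 173 ± 34.8 to 133 ± 13.4 (-0.39 ± 0.09, adjusted p = 0.020). Gnaq, which encodes the Gq subunit itself, was at 0.18 ± 0.11 (adjusted p = 0.26), and Gnas, the Gs subunit, at 0.09 ± 0.09 (adjusted p = 0.48). The list's median was 0.09, beside 0.15 over all tested genes. In siNEG joints 2 rose and 0 fell (37.8% and 12.2% of all genes), with Prkca at -0.20 (adjusted p = 0.21). In siMMP13 joints 1 rose and 2 fell (34.7% and 14.8% of all genes), with Plcb1 at 0.28 (adjusted p = 0.072) and Prkcb, another protein kinase C gene, at -0.53 (adjusted p = 0.00049). Gnaq was the 1 gene of the list called in siMMP13 against siNEG joints, as lower, at -0.42 ± 0.16 (adjusted p = 0.043). In that comparison 1.53% of all tested genes were called as higher and 4.59% as lower.

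Genes known to act on Ptgs2 transcription or message stability numbered 21, all of them tested. In loaded untreated joints 9 rose and 0 fell, with a median log2 fold change of 0.25 beside 0.15 over all tested genes, 31.6% of which rose. The largest of the 9 were Hif1a (1.10 ± 0.13, adjusted p = 1.3e-05), Jun (0.96 ± 0.36, adjusted p = 0.029) and Fos (0.91 ± 0.20, adjusted p = 0.00012), which encode transcription factors. Of the cytokine genes Il6 rose by 0.66 ± 0.20 (adjusted p = 0.037) and Il1b by 0.48 ± 0.13 (adjusted p = 0.037), and Il1r1 and Il1rap, for the chains of the interleukin-1 receptor, by 0.60 ± 0.11 and 0.42 ± 0.08. Cebpb (0.29 ± 0.08), a transcription factor gene, and Mapk8 (0.25 ± 0.08), for a stress kinase, were the others. In siNEG joints 10 rose and 0 fell, where 37.8% of all genes rose and 12.2% fell. In siMMP13 joints 9 rose and 1 fell, where 34.7% of all genes rose and 14.8% fell.

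Markers of other cell types also changed in loaded untreated against healthy joints, where 31.6% of all tested genes rose and 14.8% fell. Of 4 granulocyte markers on the panel 0 rose and 3 fell, namely Mmp9, Ccr3 and Alox15, the last of which is also one of the eicosanoid genes above. Their summed normalized counts ran from 2259 to 6311 in healthy joints, 1965 to 5160 after loading alone, 2344 to 5446 with siNEG and 1513 to 5293 with siMMP13. Of 6 markers of lymphocytes and antigen presentation 0 rose and 4 fell, with sums of 965 to 2788, 1149 to 1877, 1276 to 1870.5 and 1557 to 2150 in the same order. Of 8 macrophage markers 2 rose and 4 fell, with sums of 7021 to 17506, 10024 to 14699, 8831 to 16033 and 10279 to 21663. The called macrophage markers were Cd163, Mrc1, Tyrobp, Trem2, Retnla and Arg1. Cfd, the 1 adipocyte marker on the panel, fell by 1.53 on the log2 scale, with a range of 320.5 to 5531 in healthy and 315 to 1374 in loaded untreated joints. The sum of 3 muscle markers ran from 142 to 1042 in healthy, 145 to 861 in loaded untreated, 185 to 1129 in siNEG and 121 to 2443 in siMMP13 joints. The part of these cell types in the levels of the prostaglandin genes was not tested, other than by the Myl2 covariate, which itself differed between groups.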

How the data were processed

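Counts per probe of the mouse inflammation panel (version 2) in 48 knee joint samples were analysed as deposited by the authors. The deposited whole-number counts still held 6 positive and 8 negative control probes, and whether any background was taken off first is not given in the sources used here. Groups came from the sample labels. Nothing in the labels says that samples of a group are separate animals, so their spread, and the p-values that rest on it, may be technical. The SEs and intervals given hold the spread between samples.

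Size factors were geometric means over the 6 housekeeping genes (Tubb5, Pgk1, Hprt, Gusb, Gapdh, Cltc). The 196 of 248 genes that exceeded 20 counts in 12 or more samples entered 1 edgeR model of all 4 groups (edgeR 4.0.16, quasi-likelihood F test, R 4.3.3). Genes with a Benjamini-Hochberg adjusted p under 0.05 over these 196 were called. SEs and 95% intervals come from log2(normalized count + 1) of the 12 samples per group, and not from the edgeR fits they are printed beside. Ratios used the counts plus 1 and correlations log2(normalized count + 1), with permutation tests in numpy 2.4.6 and scipy 1.17.1. The script was tested on simulated counts.

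The members, the gene lists and the tests were chosen with earlier results of these data known. All 9 members are named, with the called genes of each list in the first comparison and the 3 genes most like each called member. Same-numbered samples of different groups did not vary together (median r of -0.01 to 0.08 over the pairs of groups), so numbers were not taken as pairs. Names and sequences are from the RefSeq tables of GRCm38.p6, read for these genes only. Alternatives were TMM and DESeq2 1.42.0 size factors, total counts, each housekeeping gene left out, other filters, background subtraction, the DESeq2 Wald test, limma 3.58.1, array weights, 2-group fits, the replicate block and each sample left out. Leaving out the 4 divergent libraries and the Myl2 covariate were added after seeing the data.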

Additional observations from a re-analysis of the deposited data

How the results depend on the processing

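Calls of Ptgfr against healthy joints kept their direction and passed the threshold in every alternative. Those of Ptgs2 did so wherever it was tested. That is no separate support for Ptgs2, since under a count filter it entered only through loaded joints. When only siMMP13 or only siNEG joints were fitted with healthy joints, Ptgs2 did not pass the count filter, which left 1 call in place of 2 and 2 in place of 3. The log2 fold change of Ptgs2 in loaded untreated joints ran from 1.54 (pseudocount 10) to 3.86 (negative controls subtracted). Array weights gave 5 calls in loaded untreated and 4 in siMMP13 joints against healthy ones, and leaving out the 4 divergent libraries gave 4 in each, against 2. These fits called more of all tested genes too, 71.4% and 65.8% with array weights and 56.1% and 61.7% without the divergent libraries. The single call in siMMP13 against siNEG joints became 0 with TMM or DESeq2 size factors, scaling without Cltc, Gusb, Hprt or Tubb5, no filter, limma with either pseudocount, array weights, a 2-group fit, the replicate block, the divergent libraries left out, or Myl2 as a covariate. Leaving out each sample in turn gave 0 to 1. The cause was not tested.

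With the replicate number as a block, Ptgfr in siMMP13 against siNEG joints was -0.51 with an adjusted p of 0.11, and no other call of the 8 genes changed. TMM scaling moved the median of all tested genes by -0.19 (loaded untreated), -0.24 (siNEG) and -0.15 (siMMP13) against healthy joints, and changed the split in loaded untreated joints from 62 higher and 29 lower to 47 and 51, in siNEG joints from 74 and 24 to 51 and 62, and in siMMP13 joints from 68 and 29 to 54 and 52.

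The Ptgir call in siNEG joints was lost without Pgk1 (adjusted p = 0.075), without Tubb5 (0.053), with the Myl2 covariate (0.29), and without healthy replicate 4, siNEG replicate 2 or siNEG replicate 5. The log2 ratio of Ptgs2 to Ptgs1 in siNEG against untreated joints was -0.002, 0.12 with a pseudocount of 10, and -0.16 to 0.22 with each sample left out. Without the divergent libraries that ratio was 0.14 in siMMP13 against siNEG and 0.14 against untreated joints, and that of Ptgfr to Ptgs1 was 0.14 in siMMP13 against untreated joints. For Ptgfr to Ptgs1 in siMMP13 against healthy joints, leaving out each sample gave 0.78 to 1.07, and 7 of 24 lost the threshold (siMMP13 replicates 2, 3, 5, 6, 9 and 10 and healthy replicate 9). Low counts limit Ptger1, Tbxa2r and healthy Ptgs2.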

Other observations

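A further prostanoid receptor gene on the panel, chosen after its values were seen, was at background. The probe named Gpr44, whose current symbol is Ptgdr2, a receptor gene for prostaglandin D2, had a highest count of 13 and was above the negative controls in 0 of 48 joints. Its median normalized count was 5.84 in the healthy group and, among loaded joints, 5.74 untreated, 5.34 with siNEG and 6.48 with siMMP13. Its expression was not detectable at this depth.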
